A study of Mus musculus with 6 samples.

Results

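The genes described here are the 3 D cyclins (Ccnd1, Ccnd2, Ccnd3), the 2 kinases they bind (Cdk4, Cdk6) and 5 inhibitors of these kinases (Cdkn1a, Cdkn1b, Cdkn1c, Cdkn2a, Cdkn2b), chosen by gene symbol as the core of the decision to leave G1. They are 10 of the 27546 genes in the table. RNA-Seq was performed on distal colon of 3 Gm31629-/- mice, knockouts of the long noncoding RNA gene Gm31629, and of 3 WT littermates on the C57BL/6 background. Each library was treated as 1 mouse, although the methods describe pooled RNA. Every mouse was 8 weeks old, drank 3% DSS (dextran sulfate sodium, which injures the colonic epithelium) for 7 days and was sacrificed on day 8, so the control mice carried the injury too. Mice without DSS were not analysed here. Levels are given as FPKM, the fragments of a gene divided by its length and by the depth of its library. FPKM allows for length and depth but not for a different RNA makeup of the libraries. Fold changes under other scalings are therefore given below.

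D cyclins are made in response to growth factors and Wnt signals and activate CDK4 and CDK6. The active kinases phosphorylate the retinoblastoma protein, which releases E2F factors and lets the cell enter S phase. Inhibitors of the Cip/Kip family (p21 from Cdkn1a, p27 from Cdkn1b, p57 from Cdkn1c) bind cyclin-CDK complexes, and inhibitors of the INK4 family (p16 from Cdkn2a, p15 from Cdkn2b) bind CDK4 and CDK6 themselves. In the colon, cyclin D1 is known from the dividing cells of the crypt, and p21 and p27 from cells that have left the cycle.

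The libraries held about 18005375 to 18795383 mapped fragments, estimated from the steps between low FPKM values. The Y-linked genes Eif2s3y, Ddx3y, Kdm5d and Uty were present, and Xist nearly absent (0.00606 FPKM), in Gm31629-/- mouse 1, whereas the other 5 libraries had 8.35 to 13.8 FPKM of Xist and none of the Y-linked genes. The methods name male mice, and by these genes only Gm31629-/- mouse 1 matched this, while the other 5 libraries did not. The sex of Gm31629-/- mouse 1 cannot be told apart from its other properties, so values without it are given where they matter. The labelled tissue was present in all libraries: 16 markers of colon epithelium summed to 13241 to 14422 FPKM in the WT mice and to 8107 to 9627 FPKM in the Gm31629-/- mice. Markers of the gut wall differed far more. The 12 smooth muscle markers summed to 28.3 to 54.3 FPKM in the WT mice and to 1610 to 2625 FPKM in the Gm31629-/- mice, 10 fibroblast markers to 23.2 to 42.7 and 232.5 to 649 FPKM, 12 markers of enteric neurons and glia to 2.86 to 5.44 and 44.4 to 155.3 FPKM, and 8 endothelial markers to 2.45 to 6.91 and 57.4 to 102.6 FPKM. Markers of macrophages (68.9 to 79.5 and 337 to 738 FPKM), neutrophils (72.1 to 132.5 and 548 to 1047 FPKM), T cells (8.13 to 12.8 and 23.7 to 38.7 FPKM), B and plasma cells (116 to 131 and 301 to 516 FPKM) and adipocytes (13.6 to 57.7 and 149 to 525 FPKM) summed higher in each Gm31629-/- mouse as well. Skeletal muscle markers overlapped (8.92 to 14.0 and 9.73 to 107.6 FPKM, with Myh1 and Myh2 below 0.5 FPKM everywhere). By limma at an adjusted p under 0.05, 9 of 16 epithelial markers fell (6 to 10 with a mouse left out, 6 without the filter and 12 with median ratio scaling), and 12 of 12 smooth muscle, 10 of 10 fibroblast, 11 of 12 neuronal and glial and 8 of 8 endothelial markers rose. Of all genes tested, 14.6% fell and 28.9% rose. In RNA from a piece of colon, the number of cells of a type in that piece and RNA per cell cannot be told apart. The part of these differences in any value below was not tested.

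Of the 9 tested genes, 6 had a negative log2 fold change in the Gm31629-/- mice and 3 a positive one. Only Ccnd1 was called lower. It passed both thresholds of a call (adjusted p under 0.05 by limma, more than 1 on the log2 scale), as did 4.64% of the 14657 tested genes in the lower direction. None of the 9 was called higher, against 18.4% of all tested genes. At the adjusted p alone the members gave the same counts, against 14.6% of all genes lower and 28.9% higher. The groups did not overlap for Ccnd1, which was lower, as were 21.5% of all tested genes, and for Ccnd3 and Cdkn1b, which were higher, as were 36.3% of all tested genes. In the other 6 the groups overlapped. The median log2 fold change was -0.22 over the 9 members and 0.15 over all tested genes. Cdkn2a was too low to be tested.

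**Figure D1:**
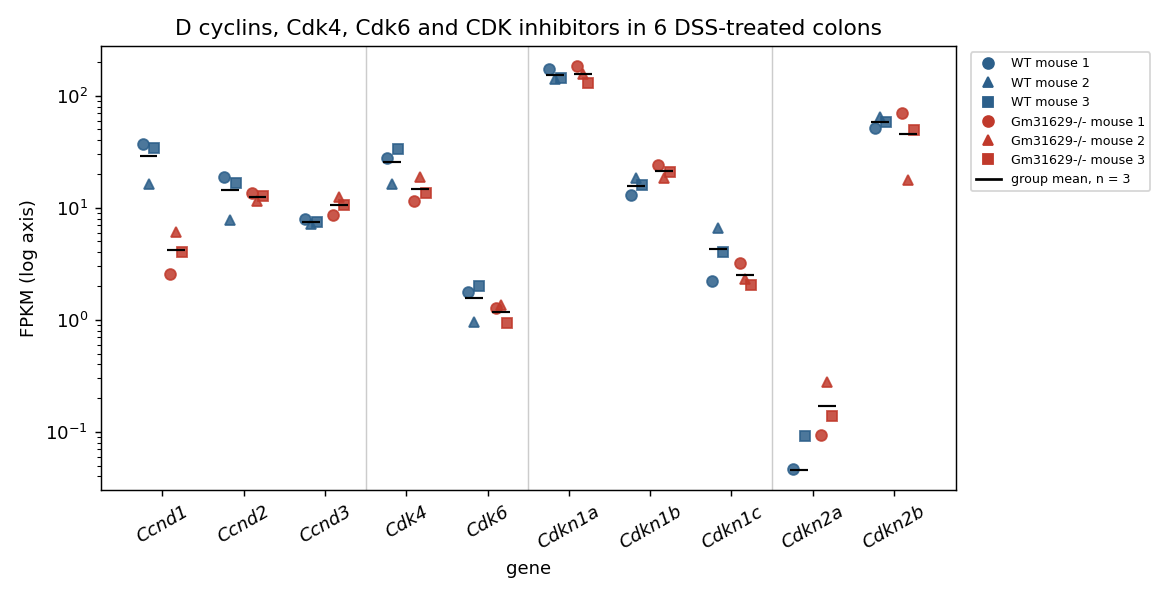
FPKM of the 10 genes on a log axis, with 1 point per mouse (circle, triangle and square for mice 1, 2 and 3) in blue for WT and red for Gm31629-/-, and black bars for the group means (n = 3 each). The 3 red points of Ccnd1 lie at 2.56 to 6.04 FPKM, below the 3 blue points at 16.3 to 37.0 FPKM. WT mouse 2 had 0 FPKM of Cdkn2a and has no point there.

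Ccnd1 encodes cyclin D1, the D cyclin most closely tied to Wnt and growth factor signals. Its gene (ENSMUSG00000070348) lies on the minus strand of chromosome 7 from 144929931 to 144939925 (GRCm38). Its level was 37.0, 16.3 and 34.5 FPKM in WT mice 1 to 3 and 2.56, 6.04 and 4.05 FPKM in Gm31629-/- mice 1 to 3. Even the lowest WT mouse, mouse 2, stood above the highest Gm31629-/- mouse. These values rest on 3222, 1381 and 3054 fragments in the WT mice and on 222, 525 and 350 fragments in the Gm31629-/- mice. The mean fell by 85.6%, from 29.3 ± 11.3 to 4.22 ± 1.75 FPKM (SD, n = 3 each), a log2 fold change of -2.51 (standard error, SE, 0.37, adjusted p = 0.00223 by limma). The 95% interval of the log2 fold change was -3.37 to -1.65. Of the 14657 genes tested, 68 had a more negative log2 fold change. Without Gm31629-/- mouse 1, the log2 fold change was -2.26 (limma adjusted p = 0.00491).

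Ccnd2 encodes cyclin D2 and is transcribed from the minus strand of chromosome 6 (127125162 to 127152193, ENSMUSG00000000184). WT mice 1 to 3 had 18.9, 7.75 and 16.5 FPKM, and Gm31629-/- mice had 13.6, 11.4 and 12.6 FPKM. The 3 Gm31629-/- mice lay close together, inside the range of the WT mice, which was set by a low value in mouse 2. On the log2 scale, the fold change was -0.10 (SE 0.31, 95% interval -0.82 to 0.62, adjusted p = 0.807 by limma), an interval that holds neither a fall nor a rise of the size seen for Ccnd1. With WT mouse 1 or WT mouse 3 left out it was 0.13 or 0.03.

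Ccnd3, for cyclin D3, is on the plus strand of chromosome 17 (47505051 to 47599691, ENSMUSG00000034165). Its level was 7.93, 7.09 and 7.43 FPKM in WT mice 1 to 3 and 8.71, 12.5 and 10.5 FPKM in Gm31629-/- mice 1 to 3. All 3 Gm31629-/- mice were above all 3 WT mice, among which the spread was small. The log2 fold change was 0.43 (SE 0.17, 95% interval 0.05 to 0.82), and the limma adjusted p of 0.0691 did not pass. It passed without Gm31629-/- mouse 1 (log2 fold change 0.55, adjusted p = 0.0319) and after each library was scaled to the epithelial markers (1.15, adjusted p = 0.00252), a scaling under which the median of all genes moved from 0.15 to 0.76. With median ratio scaling it was 0.20 (adjusted p = 0.345 by limma), and without Gm31629-/- mouse 2 it was 0.32 (adjusted p = 0.159).

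Whether Ccnd1 differed from its relatives was tested within each library, by the log2 level of Ccnd1 minus the mean log2 level of Ccnd2 and Ccnd3. A factor common to a library largely drops out of this difference. A difference in cell types between libraries need not drop out, and its part was not tested. It was 1.51, 1.04 and 1.55 in WT mice 1 to 3 and -1.74, -0.88 and -1.31 in Gm31629-/- mice 1 to 3. Thus Ccnd1 stood above its relatives in every WT library and below them in every Gm31629-/- library. The difference of the group means was -2.67 on the log2 scale, where the values had an SD of 0.28 in the WT mice and 0.43 in the Gm31629-/- mice (n = 3 each). A two-sided exact permutation test gave p = 0.10, the smallest that 3 mice against 3 allow, and 0.12 after adjustment over the 6 contrasts made. Against Ccnd2 alone the difference was -2.41 and against Ccnd3 alone -2.94 (exact p = 0.10 each, adjusted 0.12). Ccnd2 and Ccnd3 differed from each other by -0.54 between the groups (exact p = 0.30).

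Summed over the family, D cyclin transcripts came to 63.8, 31.1 and 58.5 FPKM in WT mice 1 to 3 and to 24.9, 29.9 and 27.2 FPKM in Gm31629-/- mice 1 to 3. WT mouse 2 thus had nearly as low a sum as the Gm31629-/- mice. Its makeup was nearer to the other WT mice. Ccnd1 took 57.9%, 52.3% and 59.0% of the sum in WT mice 1 to 3 and 10.3%, 20.2% and 14.9% in Gm31629-/- mice 1 to 3, a difference of the means of -41.3 percentage points (exact permutation p = 0.10, the smallest possible). The share of Ccnd2 was 24.9% to 29.6% in the WT mice and 38.2% to 54.7% in the Gm31629-/- mice, and that of Ccnd3 12.4% to 22.8% and 35.0% to 41.6%. Without Ccnd1, the sum of the other two was 21.9 ± 6.26 FPKM in the WT mice and 23.1 ± 0.795 FPKM in the Gm31629-/- mice (SD, n = 3 each).

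**Figure D2:**
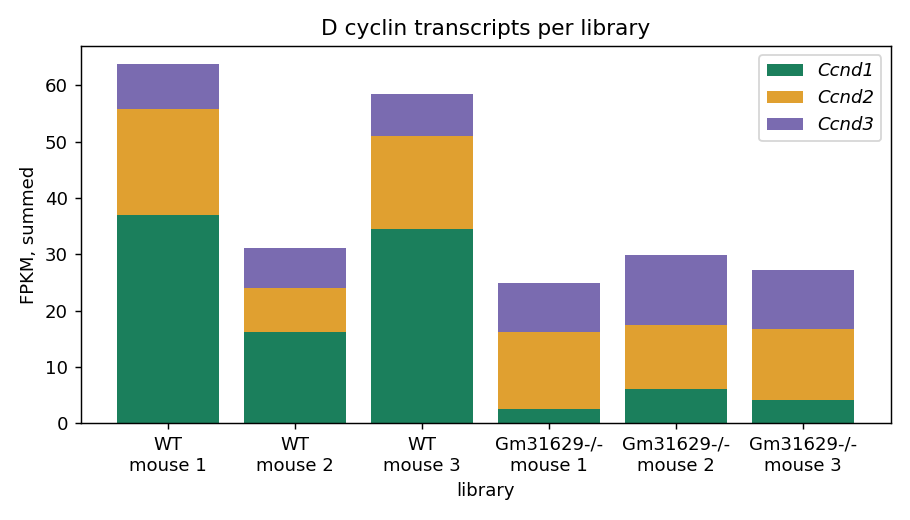
Stacked bars of the FPKM of Ccnd1 (green), Ccnd2 (orange) and Ccnd3 (purple) in each of the 6 libraries, on an axis from 0. The green part is 52.3% to 59.0% of the bar in the 3 WT mice, also in the short bar of WT mouse 2, and 10.3% to 20.2% in the 3 Gm31629-/- mice.

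In WT mice, Ccnd1 was the third of the 10 genes by mean level, after Cdkn1a and Cdkn2b, and its range overlapped that of the next gene, Cdk4. In Gm31629-/- mice it was the seventh, below Ccnd3 with no overlap and overlapping Cdkn1c. The first and second places and the last 3 (Cdkn1c, Cdk6, Cdkn2a) were held by the same genes in both genotypes.

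Cdk4 encodes the kinase partner that dominated at the RNA level. Its gene (ENSMUSG00000006728) is on the plus strand of chromosome 10 (127063534 to 127067920). Cdk4 is known as a target of the transcription factor MYC, which binds the letters CACGTG (the E-box). The sequence ahead of its start is shown for that reason, with each E-box in capitals. It is from RefSeq on GRCm38.p6, chr10:127063285-127063534, plus strand.

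Cdk4, 250 bases before the start: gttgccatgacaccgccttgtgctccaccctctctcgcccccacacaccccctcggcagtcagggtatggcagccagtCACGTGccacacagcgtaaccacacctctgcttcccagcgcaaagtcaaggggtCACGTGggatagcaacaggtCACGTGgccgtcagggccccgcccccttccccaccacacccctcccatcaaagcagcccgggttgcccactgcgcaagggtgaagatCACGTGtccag

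The window held 4 E-boxes. The letters read the same on both strands. Of 32851 promoter windows of 250 bases in the RefSeq table, 6.02% held at least 1 and 7 held at least 4. The table matched 7 of the 10 members with 10 windows, and of these only those of Cdk4 and Cdk6 held an E-box (1 for Cdk6). Ccnd1, Ccnd2 and Cdkn1c had no window there and were not searched. These matches are letters in a window and not measured binding.

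Cdk4 was at 27.6, 16.2 and 33.7 FPKM in WT mice 1 to 3 and at 11.5, 18.8 and 13.5 FPKM in Gm31629-/- mice 1 to 3. WT mouse 2 lay inside the range of the Gm31629-/- mice, so the groups overlapped. On the log2 scale, the fold change was -0.75 (SE 0.29, 95% interval -1.44 to -0.06, adjusted p = 0.0744 by limma), which did not pass. It passed without WT mouse 2 (-1.04, adjusted p = 0.0236) and with median ratio scaling (-0.999, adjusted p = 0.0268), and with scaling to epithelial markers it was 0.01. Myc had 21.2, 10.3 and 23.0 FPKM in the WT mice and 5.92, 11.6 and 5.41 FPKM in the Gm31629-/- mice (log2 fold change -1.14, limma adjusted p = 0.0395). Its adjusted p no longer passed with epithelial scaling (log2 fold change -0.41) or without Gm31629-/- mouse 1 or 3 or WT mouse 1 or 3 (0.0949 to 0.138). For both genes WT mouse 2 was the lowest WT mouse and Gm31629-/- mouse 2 the highest of its group. This order was not particular to Cdk4 and Myc. It also held for Ccnd1, Ccnd3, Cdk6 and the summed proliferation genes described below, but not for Ccnd2.

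Cdk6, the second partner of D cyclins, was the rarer of the pair. Its gene (ENSMUSG00000040274) spans 3341485 to 3531008 on the plus strand of chromosome 5. Its level was 1.77, 0.953 and 1.99 FPKM in the WT mice and 1.26, 1.34 and 0.938 FPKM in the Gm31629-/- mice, overlapping through WT mouse 2 (log2 fold change -0.22, SE 0.21, adjusted p = 0.424 by limma). Cdk4 made up 94.0% to 94.5% of the Cdk4 and Cdk6 sum in the WT mice and 90.1% to 93.5% in the Gm31629-/- mice. The log2 difference of Cdk4 over Cdk6 was lower in the Gm31629-/- mice by 0.53 than in the WT mice, with no overlap (KO minus WT -0.53, exact permutation p = 0.10, the smallest possible, adjusted 0.12). KO minus WT was -0.45 with 0.1 added to FPKM in place of 1. Without Gm31629-/- mouse 1 it was -0.36 (exact permutation p = 0.20).

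Cdkn1a, for the p53-inducible inhibitor p21, was the most abundant of the 10 genes in every library. It lies on the plus strand of chromosome 17 (29090976 to 29100727, ENSMUSG00000023067). WT mice 1 to 3 had 172.5, 142 and 145 FPKM and Gm31629-/- mice 1 to 3 had 184, 156 and 131 FPKM, with full overlap. The log2 fold change was 0.02 (SE 0.17, 95% interval -0.39 to 0.44, adjusted p = 0.922 by limma). The sign turned with median ratio scaling (-0.24), and the gene passed as higher when libraries were scaled to the epithelial markers (0.82, adjusted p = 0.00879), near the median of all genes under that scaling. Set against Cdkn1a within a library, Ccnd1 was 21.4%, 11.5% and 23.8% of its level in the WT mice and 1.39%, 3.88% and 3.09% in the Gm31629-/- mice. At an adjusted p under 0.05, 28.9% of all tested genes rose and 14.6% fell. Among 17 other tested p53 target genes, 8 rose and 1 fell at this threshold, with a median log2 fold change of 0.74. With epithelial scaling 14 rose, where 59.2% of all tested genes rose, and with a mouse left out 6 to 8 rose and 0 to 1 fell. Pmaip1, which encodes the death-promoting protein Noxa, rose from 2.99 ± 0.530 to 37.95 ± 6.01 FPKM (SD, n = 3 each), and Phlda3 from 1.47 ± 0.0855 to 11.7 ± 5.13 FPKM. As deposited, Cdkn1a was not among the genes of this kind that passed. Neither were others of the 17, such as Bax and Fas (log2 fold change 0.29 and 0.48).

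Cdkn1b, for p27, is on the plus strand of chromosome 6 (134920401 to 134925513, ENSMUSG00000003031). It had 13.0, 18.44 and 15.9 FPKM in WT mice 1 to 3 and 24.2, 18.46 and 20.98 FPKM in Gm31629-/- mice 1 to 3. The groups touched without overlapping, since mouse 2 of each genotype had almost the same value. On the log2 scale, the fold change was 0.41 (SE 0.18, 95% interval -0.01 to 0.83, adjusted p = 0.0993 by limma), which did not pass. It was 0.16 with median ratio scaling and passed at 1.17 with epithelial scaling (adjusted p = 0.0013).

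Cdkn1c, for p57, is imprinted and expressed from the maternal copy, and lies on the minus strand of chromosome 7 (143458339 to 143461050, ENSMUSG00000037664). Its level was 2.23, 6.54 and 4.07 FPKM in WT mice 1 to 3 and 3.22, 2.31 and 2.06 FPKM in Gm31629-/- mice 1 to 3. The WT mice spread 2.94-fold, with mouse 2 highest and mouse 1 inside the Gm31629-/- range. The log2 fold change was -0.51 (SE 0.32, 95% interval -1.25 to 0.23, adjusted p = 0.226 by limma). Of 7 other tested imprinted growth genes, 5 rose and 1 fell at an adjusted p under 0.05, and 4 to 5 rose and 1 fell with a mouse left out. Of all tested genes, 28.9% rose and 14.6% fell. Grb10, an adaptor that restrains growth factor receptors, rose from 0.0921 ± 0.0420 to 3.58 ± 1.16 FPKM (SD, n = 3 each), and the noncoding RNA Meg3 from 0.175 ± 0.0238 to 6.14 ± 3.84 FPKM. Slc22a18, a transporter gene of the same imprinted cluster as Cdkn1c, fell from 123.3 ± 8.51 to 44.8 ± 15.2 FPKM (log2 fold change -1.49, limma adjusted p = 0.00343).

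Cdkn2b, for p15, was the second most abundant member by mean level. It lies on the minus strand of chromosome 4 (89306299 to 89311039, ENSMUSG00000073802). WT mice 1 to 3 were alike at 51.1, 64.1 and 58.4 FPKM, while Gm31629-/- mice 1 to 3 had 70.2, 17.5 and 49.4 FPKM. The highest and the lowest value of the 6 were both in the Gm31629-/- mice, 4.0-fold apart, against 1.25-fold among WT mice. On the log2 scale, the fold change was -0.53 (SE 0.45, 95% interval -1.60 to 0.54, adjusted p = 0.370 by limma). It was -0.94 without Gm31629-/- mouse 1 (adjusted p = 0.106) and 0.03 without Gm31629-/- mouse 2 (adjusted p = 0.913).

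Cdkn2a, its neighbor on the minus strand of chromosome 4 (89274471 to 89294653, ENSMUSG00000044303), gives p16 and, from another start, p19Arf, which a gene-level value cannot tell apart. It was near the limit of detection, with 1, 0 and 2 fragments in WT mice 1 to 3 and 2, 6 and 3 fragments in Gm31629-/- mice 1 to 3. Its mean level of 0.108 FPKM was below the filter of 0.5 FPKM. A value of 0 allows up to 3 fragments, which is 0.142 FPKM in WT mouse 2. Per depth, the 11 fragments of the Gm31629-/- mice were 3.67 times the 3 of the WT mice, with an exact 95% interval of 0.970 to 20.5 that covers counting error only. A difference was not detectable at this depth.

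**Figure D3:**
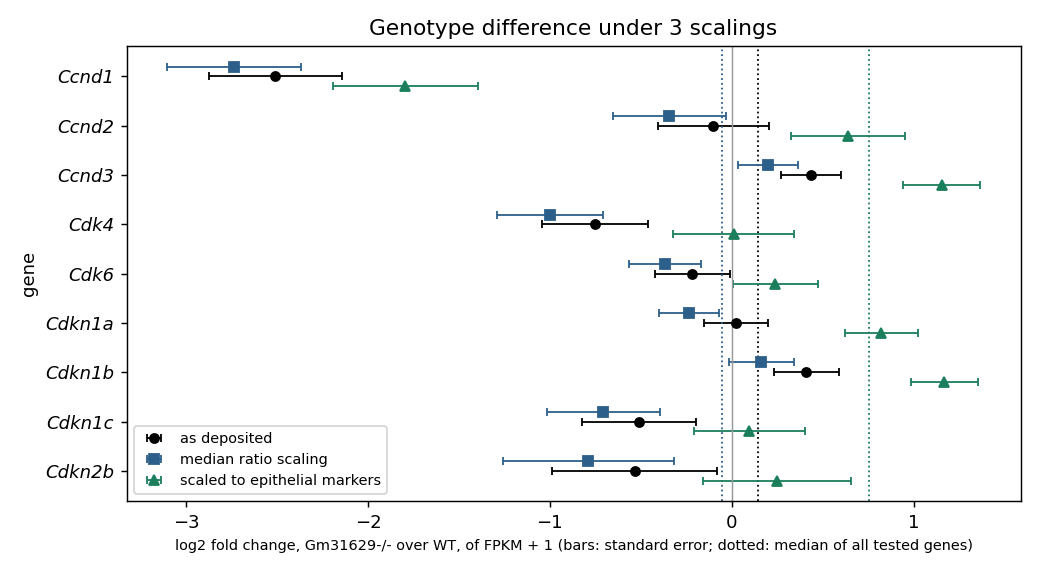
Log2 fold change of FPKM + 1, Gm31629-/- over WT, for the 9 tested members, with standard errors as bars: as deposited (black circles), after median ratio scaling (blue squares) and after scaling to 16 epithelial markers (green triangles). Dotted lines mark the median of all tested genes under each scaling (0.15, -0.05 and 0.76). Ccnd1 lies at -2.51, -2.74 and -1.79, left of the other 8 genes each time.

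WT mouse 2 had the lowest level among WT mice for all 5 genes that drive the cycle (Ccnd1, Ccnd2, Ccnd3, Cdk4, Cdk6). For Ccnd3 the WT mice were close, at 7.93, 7.09 and 7.43 FPKM. Among the inhibitors, WT mouse 2 was the highest WT mouse for Cdkn1b, Cdkn1c and Cdkn2b. It was the lowest for Cdkn1a (142 FPKM, against 172.5 and 145 FPKM in WT mice 1 and 3) and for Cdkn2a (0 fragments). The same mouse was low for genes of dividing cells. The FPKM of 16 proliferation genes, such as Mki67, Pcna and the Mcm helicase subunits, summed to 210, 99.9 and 206 in WT mice 1 to 3 and to 54.7, 94.3 and 49.9 in Gm31629-/- mice 1 to 3. WT mouse 2 and Gm31629-/- mouse 2 were close in this sum, but not in Ccnd1, which was 16.3 FPKM in the former and 6.04 FPKM in the latter. Single genes of the sum also differed between these 2 mice, in either direction. In the same order, Aurkb had 5.17 and 2.78 FPKM and Ccna2 6.39 and 3.48 FPKM. Mki67 had 2.20 and 3.45 FPKM and Mcm4 3.59 and 6.87 FPKM. Of the 16 genes, 12 fell at an adjusted p under 0.05 and none rose, against 14.6% and 28.9% of all tested genes. This count was 5 without Gm31629-/- mouse 1, 4 without Gm31629-/- mouse 3, 3 and 2 without WT mouse 1 and 3, 5 with the replicate block, 5 without the filter and 2 with epithelial scaling. Their median log2 fold change was -1.28 and the most negative -1.94, that of the mitotic kinase gene Aurkb. On this scale, with 1 added to FPKM, Ccnd1 had a more negative log2 fold change (-2.51) than each of them. With 0.1 added in place of 1, Aurkb was at -2.51 and Ccnd1 at -2.76 (SE 0.40). A difference between these 2 genes was not tested. Ccna2, for the S-phase cyclin A2, fell by 1.76 on the log2 scale (limma adjusted p = 0.00522).

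**Figure D4:**
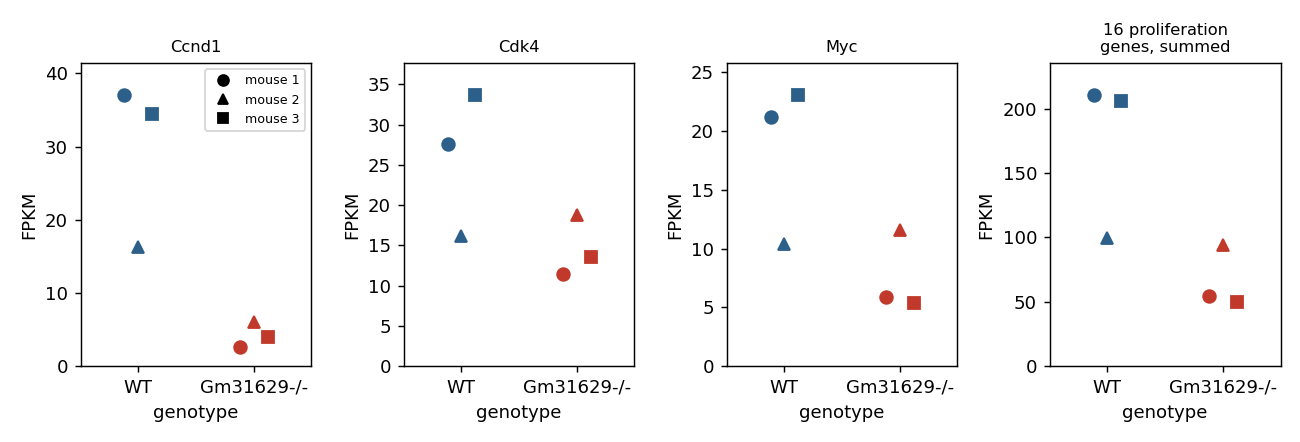
FPKM of Ccnd1, Cdk4, Myc and the sum of 16 proliferation genes, each on an axis from 0, with 1 point per mouse (circle, triangle and square for mice 1, 2 and 3), WT in blue and Gm31629-/- in red. The 2 triangles are close for Cdk4 (16.2 and 18.8 FPKM), Myc (10.3 and 11.6) and the sum (99.9 and 94.3) and apart for Ccnd1 (16.3 and 6.04). Single genes of the sum, not drawn, differed between these 2 mice in either direction.

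Of 16 other regulators of the G1 phase, among them the cyclin E genes, Cdk2 and the retinoblastoma family, none was called in either direction. Of all tested genes, 4.64% were called lower and 18.4% higher. At an adjusted p under 0.05 alone, 2 of the 16 fell and 1 rose, against 14.6% and 28.9% of all tested genes. These 3 were named after their values were seen. The phosphatase gene Cdc25a went from 11 ± 1.57 to 6.60 ± 1.39 FPKM and the CDK subunit gene Cks2 from 22.1 ± 1.71 to 12.3 ± 3.55 FPKM, and Cdkn2d, which encodes the INK4 inhibitor p19, from 6.35 ± 0.939 to 10.2 ± 0.683 FPKM (SD, n = 3 each). The limma adjusted p were 0.0289, 0.016 and 0.0183. The median log2 fold change of the 16 was -0.17. The counts depended on the scaling, with 5 lower and 0 higher by median ratios, where 24.8% of all tested genes were lower and 24.7% higher. By epithelial markers 0 were lower and 8 higher (median log2 fold change 0.44), where 59.2% of all tested genes were higher and their median was 0.76. Without WT mouse 3 none of the 16 passed.

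Of 11 tested Wnt target genes other than Ccnd1, 4 fell and 2 rose at an adjusted p under 0.05, against 14.6% and 28.9% of all tested genes. The median log2 fold change of the 11 was -0.58. Myc was among the 4. With epithelial scaling 3 rose, none fell and the median was 0.07, against 59.2% and 0.76 over all tested genes, and without WT mouse 1 or Gm31629-/- mouse 3 the counts were 2 lower and 1 higher. Among the genes that fell, the lowest p were those of the crypt genes Sox9, from 17.8 ± 2.69 to 7.58 ± 0.823 FPKM, and Ephb2, from 12.3 ± 2.04 to 4.77 ± 1.53 FPKM (SD, n = 3 each). Nkd1, an inhibitor of the pathway, went the other way, from 0.341 ± 0.0628 to 7.14 ± 1.72 FPKM (limma adjusted p = 0.000282).

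The genes whose centred log2 values over the 6 libraries came closest to those of Ccnd1 were Nox1, Pold2, Aurkb, Sstr1 and Pbk, with a root mean square difference of 0.26 to 0.33 on the log2 scale. Those closest to Ccnd3, the member with the largest positive log2 fold change, were B3galnt2, Srp14, Laptm4a, Znrd1 and Ctsb (0.03 to 0.06). These are descriptions over 6 libraries that fall into 2 genotypes.

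Several members overlap a gene on the opposite strand, and the strand setting of the counting is not given in the sources used here. In the annotation, exons of Ccnd1 share 1100 bases with LTO1, those of Cdk4 share 641 with Tspan31 and those of Ccnd3 share 361 with Bysl. LTO1 was at 2.29 to 3.23 FPKM in the WT mice and 2.98 to 3.51 FPKM in the Gm31629-/- mice. Tspan31 was at 20.8 to 24.6 and 14.5 to 22.0 FPKM, and Bysl at 4.91 to 9.50 and 3.33 to 6.57 FPKM.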

How the data were processed

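Total RNA from distal colon was sequenced after TruSeq library preparation. The authors deposited a table of FPKM for 27546 genes with a column for every library. HISAT2 2.1.0, HTSeq 0.6.0 and GRCm38 are listed in the submitters' processing notes without a role, and the annotation used is not given in the sources used here. The methods describe RNA pooled from the mice of each group, whereas the table has a column per mouse. Libraries were treated as separate mice, and p-values measure only the spread between these libraries.

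Symbols, positions and exon lengths were from GENCODE M21 (27488 identifiers matched). Fragments were recovered from FPKM and exon length. Among values of 20 fragments or fewer, 96.3% to 97.2% lay within 0.1 of a whole number.

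The 14657 genes whose mean FPKM reached 0.5 entered limma 3.58.1 (R 4.3.3, eBayes with trend) as log2(FPKM + 1), a scale that understates the change of low genes. P-values were adjusted by Benjamini-Hochberg. The 95% intervals are limma's, unadjusted. DEGseq, named in the methods, was not run. Single values were compared by two-sided exact permutation tests over the 20 groupings of the mice. As alternatives, libraries were scaled by median ratios or by the geometric mean of 16 epithelial markers. Limma's scripts were tested on simulated data. Members and lists were chosen with earlier results of these data known. All members are named. From other lists, up to 2 genes called in each direction with the lowest adjusted p are named, with exceptions stated; Myc was named after its values were seen. Gm31629 itself was not analysed here.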

Additional observations from a re-analysis of the deposited data

How the results depend on the processing

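Ccnd1 was called lower under all 15 alternatives of the fit, with a log2 fold change of -2.87 to -1.79 and an adjusted p of 0.00166 to 0.015. The count of members called was 1, except 3 with epithelial marker scaling (Ccnd1, and Ccnd3 and Cdkn1b as higher, where 36.3% of all tested genes were called higher) and 2 without WT replicate 2 (Ccnd1 and Cdk4), so 1 to 2 with a mouse left out. At the adjusted p alone the count was 2 with median ratio scaling, 4 with epithelial marker scaling (3 of them higher, as were 59.2% of all tested genes) and 1 to 2 with a mouse left out.

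Of 133 alternative log2 fold changes of the members, 115 kept their direction and side of the threshold, 6 newly passed, none was lost and 12 changed sign, none of them past the threshold. With epithelial marker scaling these were Ccnd2 (0.64), Cdk4 (0.010), Cdk6 (0.24), Cdkn1c (0.10) and Cdkn2b (0.25). With median ratio scaling it was Cdkn1a (-0.24). With a mouse left out, Ccnd2 lay between -0.47 and 0.13, with 0.13 and 0.03 without WT mouse 1 and 3, Cdkn1a between -0.10 and 0.15, with -0.10, -0.03 and -0.01 without Gm31629-/- mouse 1, WT mouse 2 and WT mouse 3, and Cdkn2b between -0.94 and 0.030. The cause was not tested. Of all genes called, 79.9% were higher as deposited, 64.7% with median ratio scaling, 66.0% at a mean FPKM of at least 5 and 96.4% with epithelial marker scaling.

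The contrast of Ccnd1 with Ccnd2 and Ccnd3 lay between -2.95 and -2.46 under its alternatives. With the replicate block, Ccnd1 kept its call (adjusted p = 0.00977) and the contrast was -2.67. Deviations of same-numbered mice correlated at 0.036, -0.11 and 0.014, so no shared pattern of same-numbered mice was seen. Such correlations cannot show whether the mice were paired by design. The share of Ccnd1 counted in fragments, not divided by length, differed by -31.5 percentage points. With 3 mice a group, exact tests cannot pass 0.05, and Cdkn2a lies below what this depth resolves.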
